A study of Mus musculus with 9 samples.

Results

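Of the 25239 gene names in the tables of whole mouse retina, 10 were taken as the cone phototransduction set, chosen by symbol and not by any measured value. They are the cone opsins *Opn1sw* and *Opn1mw*, the cone transducin subunits *Gnat2*, *Gnb3* and *Gngt2*, the cone phosphodiesterase subunits *Pde6c* and *Pde6h*, the cone channel subunits *Cnga3* and *Cngb3*, and the cone arrestin *Arr3*. All 10 were listed in every library, and all 10 passed the filter of a mean of at least 1 TPM (a transcript level scaled by length and to a sum of 1000000 per library) that 15198 genes passed.

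Retinas were taken at P42 from mice of a C57BL/6J background with 0, 1 or 2 copies of an *Rbpms* knock-in allele, called +/+, Cre/+ and Cre/Cre here. The allele was made with CRISPR/Cas9 and carries P2A-CreERT2 in frame at the end of the *Rbpms* coding sequence, so that a tamoxifen-dependent Cre recombinase is made wherever *Rbpms* is expressed. Each genotype had 3 libraries, each from the pair of retinas of a single mouse, and the controls were littermates. No tamoxifen was stated for these retinas, and in the retina *Rbpms* marks ganglion cells, not cones. The comparison asked whether cone gene expression differed with the number of knock-in alleles. *Rbpms* itself had means of 41.7 ± 2.85, 32.2 ± 0.888 and 21.02 ± 2.80 TPM with 0, 1 and 2 alleles (SD, n = 3), in the order of the labels and without overlap.

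Cones are the photoreceptors of daylight and colour vision. In the mouse, a cone can hold the short-wave opsin, the middle-wave opsin or both. Light-activated opsin switches on transducin, transducin frees phosphodiesterase from its inhibitory subunit, the fall in cGMP closes a cation channel, and arrestin then binds the opsin and ends its activity. Rods use a parallel set of proteins, largely encoded by other genes.

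The libraries held 4.05 to 4.65 gigabases of aligned sequence. Cre/Cre replicate 1 stood apart from the other libraries. Its ribosomal precursor *Rn45s* took 9.21% of all TPM, against 0.0827% to 0.336% in the other 8 libraries, and the median over genes of the ratio to the geometric mean of 9 libraries was 0.915, against 0.982 to 1.03 elsewhere. *Xist*, which marks female tissue, was 516 to 585 TPM in 6 libraries. It was at most 3.16 in Cre/+ replicate 3 and Cre/Cre replicates 1 and 3. *Ddx3y*, a gene of the Y chromosome, was at least 54.8 TPM in those 3 libraries and at most 0.209 in the 6 others. By both genes those 3 libraries were male, and all 3 +/+ libraries were female. The tissue label matched its markers, with 5 rod genes summing to 34652 to 42642 TPM and 5 cone genes, all of the set described here, to 2267 to 2521. Ganglion cell markers, *Rbpms* among their 5 genes, summed to 1010 to 1047 TPM in +/+, 981 to 1016 in Cre/+ and 747 to 902 in Cre/Cre, and 5 blood genes to 150.5 to 182, 92.5 to 105 and 185 to 300.5. Lens genes summed to 902 TPM over 5 genes in Cre/Cre replicate 2 and to 10.7 to 201 TPM in the other libraries.

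None of the 10 cone genes passed the test for a difference between genotypes. With limma on log2(TPM + 1) and an adjusted p of at most 0.05, 0 of 10 passed in Cre/+ against +/+, where 0.00658% of all genes did. In Cre/Cre against +/+ it was 0 of 10, with 0.00658% of all genes. At an unadjusted p under 0.05, 1 cone gene was higher and 0 were lower in Cre/+ (all genes, 4.9% and 5.82%), and 1 was higher and 3 were lower in Cre/Cre (all genes, 1.58% and 5.39%). The gene higher in Cre/+ was *Cngb3*, the gene higher in Cre/Cre was *Arr3*, and those lower in Cre/Cre were *Gnb3*, *Gngt2* and *Opn1sw*. The summed ganglion cell and blood markers of Cre/Cre lay outside the range of the other libraries, and their part in these values was not tested. In whole retina, fewer cones and less RNA per cone cannot be told apart.

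**Figure D1:**
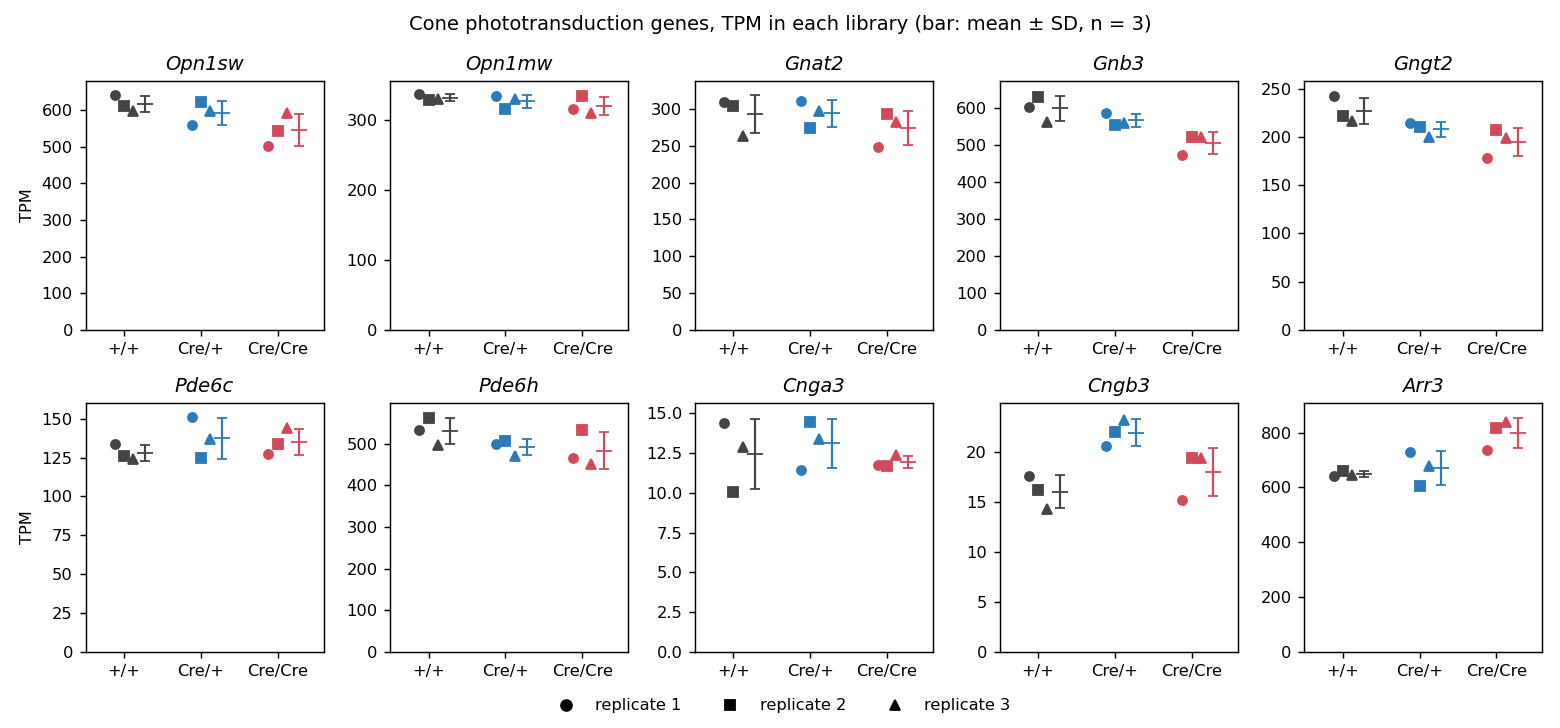
TPM of each of the 10 cone genes (y axis, from 0) in the 3 libraries of each genotype (x axis). Points are libraries, shaped by replicate number, and bars are the mean ± SD of 3. *Arr3* in Cre/Cre (736 to 839) lies above every +/+ library (641 to 660.0), *Gnb3* in Cre/Cre (473 to 523) lies below (563 to 631), and *Cngb3* is highest in Cre/+ (20.6 to 23.3).

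The levels of the 10 genes, in TPM, spanned a wide range. In +/+ the order of means was *Arr3*, *Opn1sw*, *Gnb3*, *Pde6h*, *Opn1mw*, *Gnat2*, *Gngt2*, *Pde6c*, *Cngb3* and *Cnga3*, from 648 ± 10.3 down to 12.5 ± 2.22 TPM (SD, n = 3). Neighbours whose +/+ libraries overlapped were *Arr3* and *Opn1sw*, *Opn1sw* and *Gnb3*, and *Cngb3* and *Cnga3*. The gap between *Pde6c* and *Cngb3* was a ratio of 7.97, so the transcripts of both channel subunits lay well under those of every other step. Within a genotype the spread was smallest for *Opn1mw*, with a coefficient of variation of 3.0%, and widest for *Cnga3*, with 12.6%. The deposited read coverage ran from 11.9 reads per base for *Cnga3* to 1049 for *Arr3*. For *Gngt2* it was 64.5 to 101, below the 140 to 204 of *Pde6c*, although *Gngt2* was the higher by TPM. The place of *Gngt2* in the order thus depends on the measure, and the cause was not tested. The 10 genes together made up 3073 to 3474 TPM per library, or 5.41% to 6.16% of the sum of 10 rod counterparts.

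*Opn1sw*, the short-wave opsin, lies on chromosome 6 (mm10, 29376671 to 29380513, minus strand). *Opn1mw*, the middle-wave opsin, lies on the plus strand of chromosome X, from 74127466 to 74150755. The 250 bases upstream of their annotated starts are shown with those of *Arr3*, since these 3 genes open and close the light response. Also, among the genes with a promoter in the RefSeq table, *Opn1sw* and *Arr3* differed most in opposite directions in Cre/Cre against +/+. Neither passed the adjusted p there, and in Cre/+ other genes differed most. The regions are chr6:29380514-29380763 on the minus strand for *Opn1sw*, chrX:74127216-74127465 on the plus strand for *Opn1mw* and chrX:100605247-100605496 on the plus strand for *Arr3*, in RefSeq on GRCm38.p6. They read 5′ to 3′, and capitals mark matches, on either strand, to TAATC (the core that the photoreceptor factors CRX and OTX bind), AGGTCA (a nuclear receptor half-site) and TATAAA (the TATA box).
Opn1sw: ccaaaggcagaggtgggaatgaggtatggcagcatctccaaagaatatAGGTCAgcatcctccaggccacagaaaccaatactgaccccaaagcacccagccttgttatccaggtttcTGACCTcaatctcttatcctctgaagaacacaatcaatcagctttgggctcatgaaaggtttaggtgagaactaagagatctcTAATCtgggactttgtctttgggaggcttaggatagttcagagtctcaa
Opn1mw: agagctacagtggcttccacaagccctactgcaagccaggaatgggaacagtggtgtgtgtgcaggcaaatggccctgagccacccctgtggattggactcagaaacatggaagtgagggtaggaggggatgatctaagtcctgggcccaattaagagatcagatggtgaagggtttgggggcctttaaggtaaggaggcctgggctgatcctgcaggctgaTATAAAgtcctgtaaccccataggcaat
Arr3: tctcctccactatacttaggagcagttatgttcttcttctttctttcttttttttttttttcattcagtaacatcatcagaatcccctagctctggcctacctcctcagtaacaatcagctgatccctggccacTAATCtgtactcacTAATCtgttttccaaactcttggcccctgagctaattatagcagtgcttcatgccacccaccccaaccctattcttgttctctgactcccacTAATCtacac

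The *Opn1sw* window held TAATC 49 bases before the start and AGGTCA at 202 bases on the gene's strand and at 132 bases on the other strand. The *Opn1mw* window held TATAAA at 28 bases and no TAATC or AGGTCA. The *Arr3* window held TAATC 3 times, at 116, 102 and 10 bases. Among 32851 promoters of the same 250 bases, read on both strands, 19.8% held TAATC, 14.0% AGGTCA and 12.4% TATAAA. The table had promoters for 6 of the 10 genes. Of the other 3 with a promoter, *Gnat2* held TAATC on the other strand 18 bases before its start, as part of TAATCC, which 6.25% of promoters hold. *Cnga3* held TATAAA on the other strand of the later of its 2 promoters, at 122 bases, and *Pde6h* held none of these letters in its window. These matches describe letters and are not evidence of binding.

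*Opn1sw* was 641, 613 and 598 TPM in the +/+ libraries, 559, 624 and 597 in Cre/+, and 503, 543 and 592 in Cre/Cre. Every Cre/Cre library was below every +/+ library, though the nearest pair, 592 and 598, was close, while Cre/+ overlapped both. The log2 fold change in Cre/Cre against +/+, on the log2(TPM + 1) scale, was -0.18 ± 0.08 (SE), with an adjusted p of 0.679 by limma. Without Cre/Cre replicate 1, the library with the high *Rn45s*, the log2 fold change was -0.12 and the unadjusted p was no longer under 0.05. *Opn1sw* shares 397 exon bases with *Calu* on the opposite strand in the GENCODE models. The libraries were strand-specific, but whether strand was used in the counting is not given in the sources used here, so that reads of *Calu* may enter this value.

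*Opn1mw* was 337, 329 and 329 TPM in +/+, 334, 315 and 330.3 in Cre/+, and 315, 334 and 310.2 in Cre/Cre. The 3 genotypes overlapped, with means of 332 ± 4.74, 326 ± 9.93 and 320 ± 12.6 (SD, n = 3). Its log2 fold change was -0.02 in Cre/+ (95% interval -0.17 to 0.12) and -0.05 in Cre/Cre (-0.20 to 0.09). *Opn1mw* is X-linked, and in the Cre/Cre library with high *Xist* it was 334 TPM.

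*Opn1mw* transcripts, as a percent of *Opn1sw* transcripts in the same library, were 52.6, 53.6 and 55.1 in +/+, 59.7, 50.5 and 55.3 in Cre/+, and 62.7, 61.6 and 52.4 in Cre/Cre. This ratio does not depend on the scaling of a library. The genotypes overlapped, and the values of the Cre/Cre libraries included both the highest and a low one. In two-sided exact permutation tests of the log2 ratio, p was 0.7 for Cre/+ and 0.4 for Cre/Cre against +/+, and 0.5 between Cre/+ and Cre/Cre, where 0.1 is the smallest p that 3 against 3 allows. The slope over knock-in alleles was 0.06 per allele on the log2 scale, with an exact permutation p of 0.18 over 1680 arrangements. Adjusted over these 4 tests, the p-values were 0.667 to 0.7. Without Cre/Cre replicate 3, the slope was 0.10 with an exact permutation p of 0.0446 before adjustment.

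*Gnat2*, the alpha subunit of cone transducin on chromosome 3 (108093066 to 108101430), carries the signal from opsin to phosphodiesterase. It was 310.1, 305 and 263 TPM in +/+, 311, 274 and 297 in Cre/+, and 248, 293 and 283 in Cre/Cre. The genotypes overlapped, and the lowest value was that of Cre/Cre replicate 1. Its log2 fold change was 0.01 in Cre/+ (95% interval -0.18 to 0.20) and -0.09 in Cre/Cre (-0.28 to 0.09).

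*Gnb3*, the beta subunit of cone transducin, which ON bipolar cells of the retina also express, lies on chromosome 6 (124834240 to 124840275). It was 603, 631 and 563 TPM in +/+, 587, 554 and 559 in Cre/+, and 473, 521 and 523 in Cre/Cre. All Cre/Cre libraries were below all 6 others, and Cre/+ overlapped +/+. The log2 fold change in Cre/Cre was -0.24 ± 0.07 (SE) against +/+ (adjusted p = 0.543, limma) and -0.17 ± 0.07 against Cre/+ (adjusted p = 0.740, limma). The bipolar markers (*Vsx1*, *Grm6*, *Trpm1*, *Cabp5* and *Prkca*) summed to 677 to 767 TPM in +/+, 728 to 751 in Cre/+ and 565 to 702 in Cre/Cre, lowest in Cre/Cre replicate 1. Their part in the *Gnb3* level was not tested.

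*Gngt2*, the gamma subunit of cone transducin on chromosome 11 (95842295 to 95845731), was 243, 222 and 217 TPM in +/+, 215, 210.5 and 199.97 in Cre/+, and 179, 208 and 199.6 in Cre/Cre. Both knock-in genotypes lay below +/+, by a margin of 215 to 217 in Cre/+, and they overlapped each other. The log2 fold change was -0.13 ± 0.08 (SE) in Cre/+ (adjusted p = 0.561, limma) and -0.22 ± 0.08 in Cre/Cre (adjusted p = 0.634, limma). *Gngt2* shares 132 exon bases of its deposited span with *Abi3* on the opposite strand, so the same limit holds as for *Opn1sw*.

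*Pde6c*, the catalytic subunit of cone phosphodiesterase on chromosome 19 (38132781 to 38183951), breaks down cGMP. It was 134, 126 and 124 TPM in +/+, 151, 125 and 137 in Cre/+, and 127, 134 and 144 in Cre/Cre. The genotypes overlapped, and the log2 fold changes were 0.10 (95% interval -0.08 to 0.28) in Cre/+ and 0.08 (-0.10 to 0.25) in Cre/Cre.

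*Pde6h*, the inhibitory subunit on chromosome 6 (136954523 to 136963483), was 534, 561 and 498 TPM in +/+, 500.4, 507 and 471 in Cre/+, and 466, 534 and 451 in Cre/Cre. The genotypes overlapped here too, and the values of Cre/Cre spread more widely than those of Cre/+. The log2 fold changes were -0.11 (95% interval -0.28 to 0.06) and -0.14 (-0.31 to 0.03).

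*Cnga3*, the alpha subunit of the cone channel on chromosome 1 (37218278 to 37263384), forms the pore that cGMP holds open. It was 14.4, 10.04 and 12.9 TPM in +/+, 11.4, 14.5 and 13.4 in Cre/+, and 11.7, 11.7 and 12.4 in Cre/Cre. All 3 genotypes overlapped, and the +/+ libraries alone spanned the Cre/Cre range. Its intervals were the widest of the set, from -0.21 to 0.36 around 0.08 in Cre/+ and from -0.33 to 0.24 around -0.04 in Cre/Cre, in log2 units.

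*Cngb3*, the modulatory beta subunit on chromosome 4 (19280850 to 19510623), was 17.6, 16.3 and 14.3 TPM in +/+, 20.6, 22.0 and 23.3 in Cre/+, and 15.2, 19.5 and 19.4 in Cre/Cre. All Cre/+ libraries were above all 6 others, and Cre/Cre overlapped +/+. Against +/+ the log2 fold change was 0.43 ± 0.12 (SE) in Cre/+ (95% interval 0.19 to 0.68, adjusted p = 0.355, limma) and 0.15 ± 0.12 in Cre/Cre (adjusted p = 0.862, limma). Cre/Cre was lower than Cre/+ by a log2 fold change of -0.28 (adjusted p = 0.740, limma), so the values did not follow the number of alleles. *Cngb3* exceeded *Cnga3* in 9 of 9 libraries, at 111% to 180.1% of its level.

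*Arr3*, the cone arrestin, lies on the plus strand of chromosome X (100605497 to 100618493). It was 641, 660.0 and 645 TPM in +/+, 729, 606 and 677 in Cre/+, and 736, 818 and 839 in Cre/Cre. All Cre/Cre libraries were above all 6 others, although the lowest of them, 736, was close to the highest of Cre/+, 729. The means were 648 ± 10.3, 670.5 ± 61.4 and 798 ± 54.5 (SD, n = 3). The log2 fold change in Cre/Cre was 0.30 ± 0.08 (SE) against +/+ (95% interval 0.13 to 0.47, adjusted p = 0.542, limma) and 0.25 ± 0.08 against Cre/+ (adjusted p = 0.653, limma). In Cre/+ it was 0.04 (-0.12 to 0.21). *Arr3* is X-linked, and among the libraries with high *Xist* it was 641 to 660.0 TPM in +/+ and 818 in the single Cre/Cre library. With *Xist* as a covariate the unadjusted p in Cre/Cre against +/+ was again under 0.05. The part of sex was not tested beyond this.

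**Figure D2:**
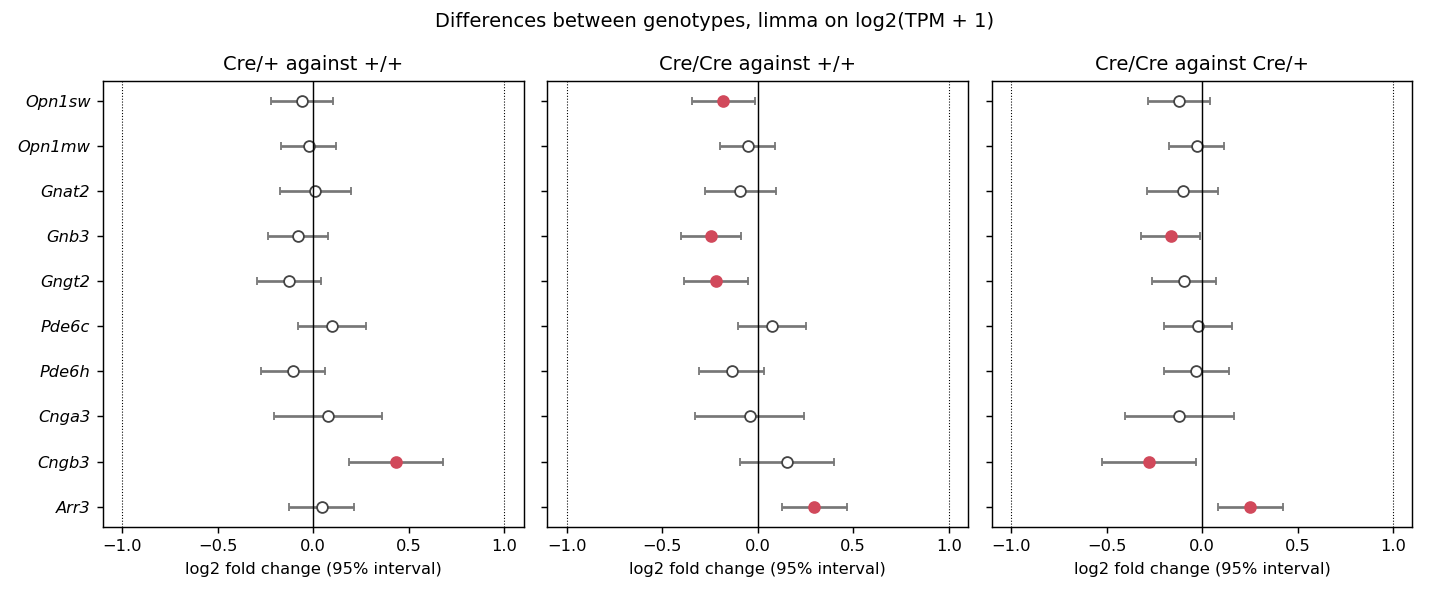
Log2 fold change (x axis, log2(TPM + 1) scale) of each cone gene (y axis) in the 3 comparisons, with the 95% interval from limma. Filled points have an unadjusted p under 0.05, dotted lines mark a 2-fold difference, and no interval reaches them.

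Across the set, 5 of 10 log2 fold changes were below 0 in Cre/+ and 7 of 10 in Cre/Cre. The medians were -0.01 and -0.07, beside 0.00 and -0.02 over all genes tested. In Cre/+, 1 cone gene lay wholly above +/+ and 1 wholly below (all genes, 11.9% and 10.3%). In Cre/Cre, 1 lay above and 3 below (all genes, 2.7% and 8.05%). Both comparisons share the +/+ libraries. With TPM divided by that median ratio in every library, the genes of Cre/Cre outside the +/+ range were again *Arr3* above and *Opn1sw*, *Gnb3* and *Gngt2* below (all genes, 6.34% and 7.2%). In Cre/+ *Gngt2* then overlapped +/+.

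Between Cre/Cre and Cre/+, 0 of 10 cone genes passed the adjusted p in limma (all genes, 0.0132%), and 1 was higher and 2 were lower at an unadjusted p under 0.05 (all genes, 2.38% and 4.2%). The same 3 genes, *Arr3* above and *Gnb3* and *Cngb3* below, were those whose libraries did not overlap (all genes, 4.76% and 7.23%). The test for any difference among the genotypes also called 0 of 10 (all genes, 0.0132%), with *Arr3* lowest at an adjusted p of 0.465 in limma. It gave 4 of 10 an unadjusted p under 0.05 (all genes, 8.63%), namely *Arr3*, *Cngb3*, *Gnb3* and *Gngt2*. The slope over alleles called 0 of 10 (all genes, 0.00658%) in limma, and 4 of 10 had an unadjusted p under 0.05 (all genes, 6.24%). It was 0.15 per allele for *Arr3*, -0.12 for *Gnb3*, -0.11 for *Gngt2* and -0.09 for *Opn1sw*, on the log2 scale.

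The 95% intervals were narrow beside the fold limit of 2. In each comparison, all 10 of them lay within a 2-fold difference. Within a 1.5-fold difference lay 9 of 10 in Cre/+, with *Cngb3* the exception, and all 10 in Cre/Cre.

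Ratios within a library set the cone genes against each other and against their rod counterparts. *Arr3* as a percent of *Opn1sw* was 99.98, 108 and 108 in +/+, 130.4, 97.2 and 113 in Cre/+, and 146, 151 and 142 in Cre/Cre. As a percent of *Gnat2* it was 207, 217 and 245 in +/+, 234, 221 and 228 in Cre/+, and 296, 280 and 297 in Cre/Cre. On both ratios all Cre/Cre libraries were above all others, Cre/Cre replicate 1 included. *Arr3* alone already separated Cre/Cre in these libraries, and *Opn1sw* lay below +/+ there, so the ratios are no separate test.

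Against *Sag*, the arrestin taken as its rod counterpart, *Arr3* was 10.8% to 12.6% in +/+, 9.77% to 12.5% in Cre/+ and 13.6% to 15.6% in Cre/Cre. How much of the *Sag* RNA came from rods alone was not measured. *Gnb3* as a percent of the rod beta subunit *Gnb1*, which many other cells also express, was 11.9 to 12.7 in +/+, 10.7 to 11.02 in Cre/+ and 10.3 to 11.47 in Cre/Cre, below +/+ in both knock-in genotypes. In Cre/+, *Gnb1* itself lay above +/+ (5071 to 5397 TPM against 4743 to 4963), while *Gnb3* overlapped +/+. *Cngb3* was 1.66% to 2.18% of the rod *Cngb1* in +/+, 2.63% to 2.77% in Cre/+ and 2.14% to 2.63% in Cre/Cre. Of the 3 ratios, that of *Arr3* stood apart in Cre/Cre, and that of *Gnb3* set +/+ apart from both knock-in genotypes. The *Cngb3* ratio stood apart in Cre/+, but its lowest Cre/+ library, 2.633%, barely exceeded the highest of Cre/Cre, 2.630%.

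The other pairs overlapped more. *Gnat2* was 1.81% to 2.35% of *Gnat1* over the 9 libraries, *Pde6h* 10.7% to 12.6% of *Pde6g*, and *Cnga3* 1.053% to 1.595% of *Cnga1*, with all genotypes overlapping. *Pde6c* was 5.49% to 5.77% of *Pde6a* in +/+, 4.88% to 6.09% in Cre/+ and 5.85% to 6.66% in Cre/Cre, which lay above +/+. *Gngt2* was 6.73% to 8.27% of *Gngt1* in +/+, 5.99% to 6.56% in Cre/+, which lay below, and 6.97% to 7.37% in Cre/Cre. The rod *Gngt1* also varied, with means of 3002, 3324 and 2731 TPM in +/+, Cre/+ and Cre/Cre.

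**Figure D3:**
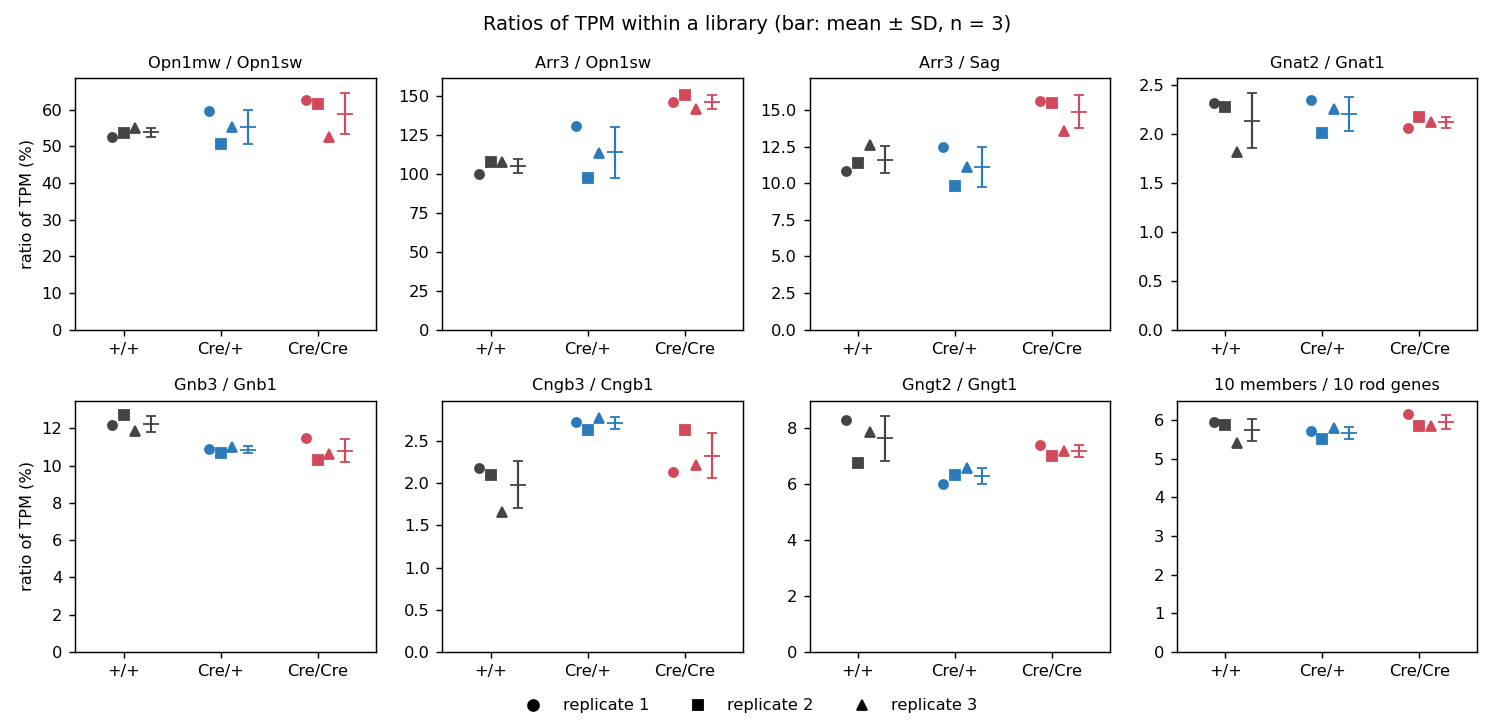
Ratios of TPM within a library, in percent (y axis, from 0), by genotype (x axis), with libraries as points and the mean ± SD of 3 as bars. *Arr3* stands higher in Cre/Cre against both *Opn1sw* and *Sag*, *Gnb3* stands lower against *Gnb1* in both knock-in genotypes, and the opsin ratio overlaps among genotypes. In Cre/+ it is *Gnb1* that lies above +/+, while *Gnb3* overlaps +/+.

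The 10 rod counterparts (among them *Gnat1*, *Gnb1*, *Gngt1*, *Pde6a*, *Pde6b*, *Pde6g*, *Cnga1*, *Cngb1* and *Sag*) had 0 of 10 called in either comparison with +/+ (all genes, 0.00658% in each). Their log2 fold changes had a median of 0.10 in Cre/+, with 6 of 10 above 0, and of -0.07 in Cre/Cre, with all 10 below 0, beside 0.00 and -0.02 over all genes. Without Cre/Cre replicate 1, the library with the high *Rn45s*, 5 of 10 were below 0 in Cre/Cre and the median was 0.01, beside 0.02 over all genes. With median-ratio scaling, 8 of 10 were below 0. At an unadjusted p under 0.05, 0 rod genes passed in Cre/+ (all genes, 4.9% higher and 5.82% lower). In Cre/Cre, 0 were higher and 1 was lower (all genes, 1.58% and 5.39%). This was *Pde6g*, the rod inhibitory subunit, at -0.18 (adjusted p = 0.655, limma). In Cre/+, 4 of 10 lay wholly above +/+ and 1 wholly below (all genes, 11.9% and 10.3%). In Cre/Cre, 0 lay above and 1 below (all genes, 2.7% and 8.05%).

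A list of 33 companion genes, for recovery of the response, retinoid supply and cone fate, had 0 called in limma in either comparison with +/+ (all genes, 0.00658% in each). The list is not limited to genes of cones alone. In whole retina, how much of each companion's RNA came from cones and how much from rods was not measured. In Cre/+, 7 of 33 were higher and 0 lower at an unadjusted p under 0.05, where all genes gave 4.9% and 5.82%, and the list's median was 0.08. The count of higher companions varied with the libraries and settings used. It was 0 without +/+ replicate 3 (all genes, 2.27% higher), 1 without +/+ replicate 2 (2.74%) and 1 without Cre/+ replicate 3 (2.71%). Without Cre/+ replicates 1 and 2 it was 3 (4.34%) and 4 (3.49%). With FPKM it was 2 (1.93%), with no filter 2 (2.75%) and with only the genotypes compared 10 (9.07%). Under the other settings it was 5 to 9 (all genes, 4.18% to 8.82%). Among the 7 with all libraries were the regulators *Thrb* (0.26), the thyroid hormone receptor that favours *Opn1mw* over *Opn1sw*, *Rora* (0.23), *Neurod1* (0.20) and *Crx* (0.15), as log2 fold changes. Also among them were *Gucy2f* (0.29), a guanylate cyclase that restores cGMP, and *Rgs9* (0.19), which speeds transducin shut-off.

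*Thrb* was 49.7, 45.9 and 40.3 TPM in +/+, 55.8, 53.8 and 52.9 in Cre/+, and 47.0, 49.6 and 52.4 in Cre/Cre. Cre/+ lay above +/+, and Cre/Cre overlapped it (adjusted p = 0.384 and 0.830, limma). *Rxrg*, a partner receptor that holds down *Opn1sw*, was 10.9 to 12.7 TPM in +/+, 9.02 to 11.4 in Cre/+ and 9.23 to 11.1 in Cre/Cre, and overlapped throughout.

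In Cre/Cre, 0 companions were higher and 2 of 33 lower at an unadjusted p under 0.05, where all genes gave 1.58% and 5.39%, and the list's median was -0.04. Without Cre/Cre replicate 1, 4 were higher and 2 lower (all genes, 5.9% and 3.58%). Without Cre/Cre replicate 3, 0 were higher and 6 lower (all genes, 1.24% and 6.56%). The 2 lower with all libraries were *Vax2*, a homeobox gene of the ventral retina, at -0.27 (adjusted p = 0.558, limma), and *Rcvrn*, the calcium sensor recoverin, at -0.14 (adjusted p = 0.695, limma). *Vax2* was 54.1, 57.5 and 63.7 TPM in +/+, 50.3, 53.0 and 55.5 in Cre/+, and 44.5, 49.6 and 50.7 in Cre/Cre. Its Cre/Cre libraries lay below all of +/+ and overlapped Cre/+. Between Cre/Cre and Cre/+, 9 of 10 cone genes, 10 of 10 rod counterparts and 30 of 33 companions had log2 fold changes below 0. The medians were -0.10, -0.14 and -0.11, beside -0.03 over all genes. Without Cre/Cre replicate 1, 8 of 10 rod counterparts and 27 of 33 companions were below 0, with medians of -0.04 each, beside 0.02 over all genes.

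**Figure D4:**
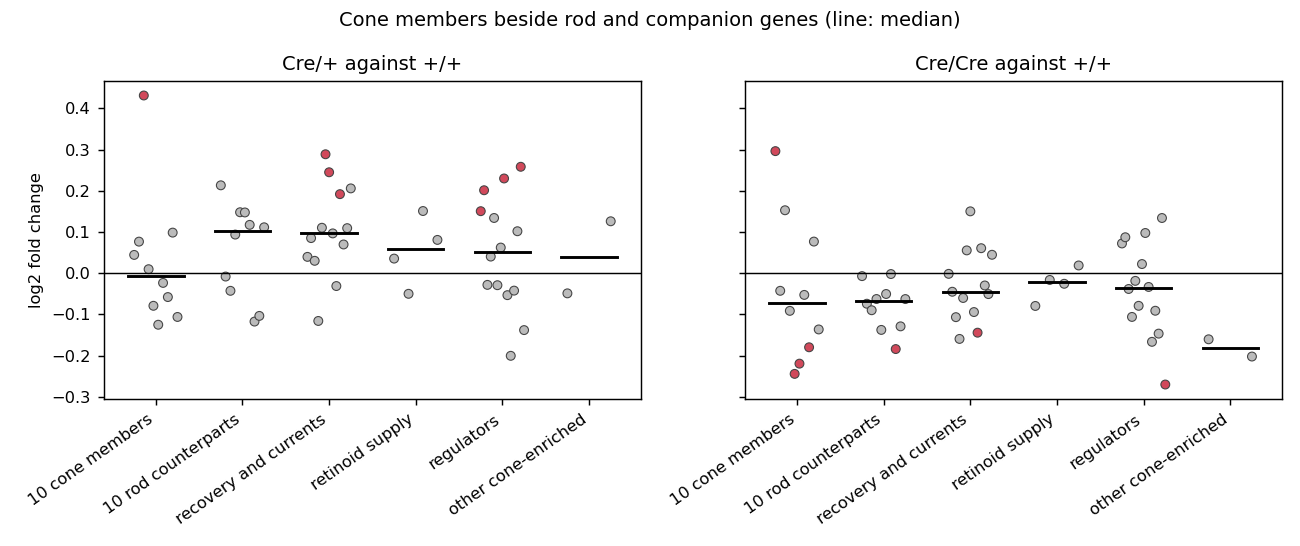
Log2 fold change against +/+ (y axis) of the 10 cone genes, their 10 rod counterparts and the companion genes by role (x axis), with a point per gene and a line at the median of each list. Red points have an unadjusted p under 0.05. The recovery genes lie mostly above 0 in Cre/+ (median 0.10), and the 10 rod counterparts all lie below 0 in Cre/Cre, where 5 of 10 do without Cre/Cre replicate 1.

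Over the 9 libraries the 10 genes followed one another to different degrees. The mean of their standardized levels was lowest in Cre/Cre replicate 1 (-1.15) and highest in +/+ replicate 1 (0.72). Each gene's correlation with the mean of the other 9 was 0.90 for *Gnat2*, 0.75 for *Gngt2* and 0.69 for *Gnb3*, and went down to -0.01 for *Cnga3* and -0.36 for *Arr3*. Without Cre/Cre replicate 1, it was 0.78 for *Gnat2* and -0.45 for *Arr3*, and that of *Opn1sw* went from 0.52 to -0.02. These are descriptions over 9 libraries that share genotypes and scaling. Of 10857 genes of at least 10 TPM, those most like the mean profile of the set were *Chgb* (Pearson r of 0.99 over 9 libraries), *Sparcl1*, *Cabp5*, *Abcg2* and *Faim* (0.96 each). Without Cre/Cre replicate 1 these were 0.95, 0.85, 0.90, 0.81 and 0.88, and *Chgb* was again first.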

How the data were processed

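The study measured RNA of whole retinas in 9 libraries, and genotype and replicate number were taken from the labels. Strand-specific poly(A) libraries were sequenced as paired reads, trimmed with Trimmomatic, aligned to mm10 with HISAT2 and quantified with StringTie by the authors. Versions and annotation are not given in the sources used here. The deposited tables hold coverage, FPKM and TPM of each gene. The deposited TPM values are scaled to a sum of 1000000 per library, the FPKM that the authors deposited are per length and depth, and the deposited coverage is the mean read depth per base. No count column was used, so the DESeq2 test of the methods was not repeated.

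TPM was summed by gene name. The 15198 genes of 25239 with a mean TPM of at least 1 were tested with limma 3.58.1 in R 4.3.3 (trend and robust prior), after log2(TPM + 1). A single fit held all 9 libraries, with genotype as the only term and 6 residual degrees of freedom. P-values were adjusted over all genes tested (Benjamini-Hochberg). The limits were 0.05 and, from the study's methods, a 2-fold change. The planned count test could not be run on these units. The opsin ratio was tested by exact permutation with scipy 1.17.1 in Python 3.11.15. Scripts were tested on simulated data. Depth was read from the ratio of coverage to FPKM, and precision was set by the spread of 3 libraries. A limma p-value sets a difference against the spread between mice of a genotype, with that spread drawn toward a trend over all genes.

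The genes named were all 10 cone genes, 10 rod counterparts, companions past an unadjusted p of 0.05 against +/+ or paired with a cone gene, and the 5 genes closest in profile. *Rbpms*, *Xist*, *Ddx3y* and *Rn45s* served as checks. Some genes of the rod and companion lists are counted but not reported here by name. These members and lists were chosen with earlier results of these data known. Alternatives were a pseudocount of 0.1, no filter, a replicate block, *Xist* as a covariate, only the genotypes compared, FPKM, median-ratio scaling, no robust prior, and each library left out in turn. Shared exons were counted in GENCODE models on GRCm38, and promoters come from RefSeq on GRCm38.p6.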

Additional observations from a re-analysis of the deposited data

How the results depend on the processing

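The count of cone genes past the adjusted p was 0 of 10 in every comparison and under every alternative run, including the replicate block, where the count of all genes called was 1 in each pair of genotypes (1, 1 and 2 without it). Of 854 values recomputed, 838 held by the rule for their kind. Counts of genes past the adjusted p had to stay the same. Log2 fold changes had to keep their direction and their side of the adjusted p of 0.05. Opsin ratios had to keep their direction and their side of an unadjusted exact permutation p of 0.05. At an unadjusted p under 0.05, *Arr3* and *Gnb3* in Cre/Cre and *Cngb3* in Cre/+, each against +/+, passed in all 18 settings, *Gngt2* in Cre/Cre in 16 and *Opn1sw* in 12. The lower cone genes in Cre/Cre numbered 1 in place of 3 without +/+ replicate 1 (*Opn1sw* -0.15, *Gngt2* -0.17), where all genes gave 5.24% lower. They also numbered 1 with *Xist* as a covariate (*Opn1sw* -0.18, as before, *Gngt2* -0.14 in place of -0.22), with 2.97% of all genes. They numbered 2 without +/+ replicate 2 (3.98%), with only the genotypes compared (4.18%) and without Cre/Cre replicate 1 (3.58%). Without Cre/Cre replicate 1, *Cngb3* joined *Arr3* above +/+ (all genes, 5.9% higher). Without Cre/Cre replicate 2, *Pde6h* took the place of *Opn1sw* among the 3 (all genes, 7.25% lower). Without Cre/+ replicate 2, 0 cone genes passed this limit between Cre/Cre and Cre/+ (all genes, 1.65% higher and 2.61% lower). The splits of all genes at that limit in Cre/Cre, 1.58% higher and 5.39% lower, became 3.63% and 4.71% under median-ratio scaling, 0.704% and 7.22% with FPKM, and 5.9% and 3.58% without Cre/Cre replicate 1.

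Several values near 0 changed sign, and the cause was not tested. Under median-ratio scaling, the log2 fold changes of Cre/Cre against Cre/+ were 0.0056 for *Opn1mw*, 0.013 for *Pde6c* and 0.0045 for *Pde6h*, and that of *Pde6h* was 0.023 with *Xist* as a covariate. With FPKM, *Gnat2* in Cre/+ was -0.016. With each library left out in turn, values ran from -0.040 to 0.0015 for *Opn1mw*, -0.065 to 0.059 for *Gnat2*, -0.059 to 0.18 for *Cnga3* and -0.018 to 0.11 for *Arr3* in Cre/+, from -0.18 to 0.062 for *Cnga3* in Cre/Cre, and from -0.090 to 0.048 for *Pde6c* and -0.10 to 0.017 for *Pde6h* between Cre/Cre and Cre/+. The opsin ratio in Cre/+ against +/+ ran from -0.024 to 0.097, negative without Cre/+ replicate 1, and its slope from 0.039 to 0.099, with an exact permutation p of 0.0446 without Cre/Cre replicate 3.

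Replicate numbers did not pair the libraries. Of 9 pairs with the same number, 1 had a correlation of deviations over 0.1 (range -0.12 to 0.13), and 3 of 9 libraries correlated best with their own number. Alternatives that need counts were not run. The precision was that of 3 mice a genotype, as the intervals give it.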
